A study of Mus musculus with 4 samples.

Results

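Pitx1 ChIP-seq peaks were examined around Msx1 on mouse chromosome 5 and around the neighbouring genes Ror2 and Msx2 on chromosome 13. The members are all peaks with a midpoint between 37600000 and 38800000 on chromosome 5 (the Msx1 window, 1.2 Mb) or between 52900000 and 54200000 on chromosome 13 (the Msx2-Ror2 window, 1.3 Mb), in the mm9 build. Together the windows held 31 of the 14753 peaks of replicate 1 and 55 of the 25027 peaks of replicate 2. Peaks of the replicates that overlapped by 1 bp or more were called shared, and each such overlap was joined into a replicated region, of which the windows held 25 of 10274. The windows were chosen by the genes in them, at a time when the peaks of these lists were already known. The numbers of peaks in them are therefore a description and carry no test.

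ChIP-seq finds the stretches of DNA that are enriched when chromatin is pulled down with an antibody, here one against Pitx1. The chromatin came from hindlimb buds of wild-type embryos of the outbred ICR strain at E11.5, and there were 2 libraries of Pitx1 ChIP and 2 of input, which is chromatin taken without antibody. All 4 libraries share strain, age, tissue and genotype, so no second condition can be compared. The protocol pooled the material of separate ChIPs and does not tie the replicates to separate litters, so differences between replicates 1 and 2 may be technical. Whole buds hold several cell types, and RNA was not measured in these libraries, so the tissue label was not checked against marker genes. Each peak carries a score in the authors' lists, which have no header that defines it. It is taken here as the peak caller's score, so that a higher score is read as a stronger peak, and places in a list are counted from its highest score.

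Msx1 and Msx2 encode closely related homeodomain proteins that mostly repress transcription. They are classic targets of BMP signalling, are made in the limb bud mesenchyme and under the apical ridge, and act partly in place of each other in limb patterning. Ror2 encodes a receptor tyrosine kinase that binds Wnt5a and is needed for limb outgrowth and for growth of the cartilage elements. Pitx1 is a homeodomain factor of the bicoid type, present in the hindlimb and absent from the forelimb, and its type of homeodomain prefers the sequence TAATCC.

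The promoters of the 3 genes are shown because they are the reference points for the peaks around them. Each sequence is the stretch of 250 bases before the start of the gene in RefSeq (GRCm38.p6), written 5′ to 3′ on the strand of the gene, at chr5:37824586-37824835 for Msx1, chr13:53472781-53473030 for Msx2 and chr13:53286125-53286374 for Ror2. All 3 genes are on the minus strand of that build. Capitals mark matches to TAATCC or to TAATTA, a core that homeodomains of the Msx type bind, searched on both strands.
Msx1: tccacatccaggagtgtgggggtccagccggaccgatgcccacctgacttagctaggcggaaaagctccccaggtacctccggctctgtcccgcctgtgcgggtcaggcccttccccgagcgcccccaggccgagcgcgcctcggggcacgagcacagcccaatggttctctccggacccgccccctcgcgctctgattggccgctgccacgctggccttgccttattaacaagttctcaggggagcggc
Msx2: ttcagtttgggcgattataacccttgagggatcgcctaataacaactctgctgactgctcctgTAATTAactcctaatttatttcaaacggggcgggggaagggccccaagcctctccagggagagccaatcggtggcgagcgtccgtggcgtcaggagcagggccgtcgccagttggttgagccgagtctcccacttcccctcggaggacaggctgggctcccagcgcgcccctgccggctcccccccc
Ror2: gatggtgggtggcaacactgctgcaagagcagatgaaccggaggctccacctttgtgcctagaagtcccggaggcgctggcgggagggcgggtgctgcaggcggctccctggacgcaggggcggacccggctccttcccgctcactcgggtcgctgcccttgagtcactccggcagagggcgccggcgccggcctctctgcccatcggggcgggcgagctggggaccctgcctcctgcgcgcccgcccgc

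None of the 3 stretches held TAATCC, which occurred in 6.25% of 32851 RefSeq promoter stretches of the same length. The Msx2 stretch held TAATTA once, starting 187 bases before the gene, and 4.84% of all such stretches held it. The shorter core TAAT, which is also part of TAATTA and TAATCC, matched 5 times before Msx2, 1 time before Msx1 and 0 times before Ror2. Because TAATTA reads the same on both strands, the single TAATTA before Msx2 was counted once on each. TAAT occurred in 54.9% of all promoter stretches. The stretches also differed in base composition, with GC contents of 61.6% for Msx2, 68% for Msx1 and 73.2% for Ror2 against a median of 52.4%. A match is a description of the letters, not a binding site. The peaks are in mm9 and the promoters in GRCm38, and positions were not converted, so which peaks cover a promoter was not determined.

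Gene positions in mm9 are known here only as the rounded values that define the windows. Msx1 is at about 38.2 Mb and Ror2 at about 53.2 to 53.4 Mb, both rounded to 100 kb, and Msx2 at about 53.57 Mb, rounded to 10 kb. In GRCm38 the protein-coding genes before Msx1 are Evc, Evc2, Stk32b and Cytl1, and those after it are Stx18, Nsg1, Zbtb49 and Lyar. Evc and Evc2 act in Hedgehog signalling at the cilium. On chromosome 13 the order in that build is Auh, Nfil3, Ror2, Sptlc1, Gm38564, Msx2, Drd1, Sfxn1, Hrh2 and Cplx2. The windows may therefore also hold genes other than those they are named for, and these data assign no peak to a gene.

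The Msx2-Ror2 window was dense in Pitx1 peaks in both libraries, whereas the Msx1 window lay closer to the autosomal rate. The Msx1 window had 9 peaks in replicate 1, 18 in replicate 2 and 8 replicated regions. In the Msx2-Ror2 window the numbers were 22, 37 and 17. Of these 17 regions, 9 lay in the 200 kb given for Ror2, so the density was not spread evenly over the window. The contrast with the Msx1 window rested largely on that stretch. Per Mb, replicated regions numbered 6.67 (95% exact Poisson interval 2.88 to 13.1) in the Msx1 window and 13.1 (7.62 to 20.9) in the Msx2-Ror2 window. The autosomes outside both windows had 4.11 per Mb (4.03 to 4.19).

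Relative to the rest of the autosomes, the density of replicated regions was 3.19 times as high in the Msx2-Ror2 window (exact interval 1.85 to 5.10). Each library alone gave nearly the same ratio, 2.87 (1.799 to 4.35) in replicate 1 and 2.84 (2.002 to 3.92) in replicate 2. For the Msx1 window the ratio was 1.62 (0.701 to 3.20), with 1.27 in replicate 1 and 1.50 in replicate 2, and all 3 intervals included 1. The chromosomes themselves differed little from the autosomal rate, with ratios of 0.912 on the rest of chromosome 5 and 1.13 on the rest of chromosome 13. The intervals cover counting error only and treat peaks as independent.

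**Figure D1:**
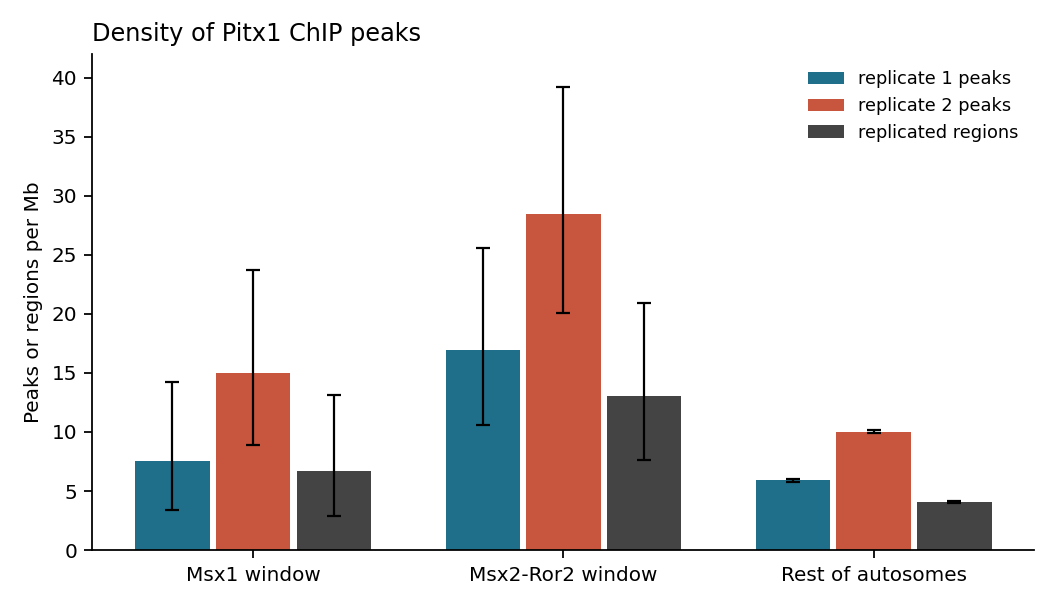
Peaks of each replicate and replicated regions per Mb (vertical axis) in the Msx1 window, the Msx2-Ror2 window and the rest of the autosomes, with 95% exact Poisson intervals as error bars. The Msx2-Ror2 bars stand highest in every list, at 16.9, 28.5 and 13.1 per Mb, and the intervals of the Msx1 bars reach down to the autosomal values.

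Peak numbers vary widely along the genome, more than counting error alone gives, so each window was also set beside all autosomal tiles of its own length. Of 2050 tiles of 1.2 Mb, 22.5% held at least the 8 replicated regions of the Msx1 window, and the median tile held 4 (quartiles 1 and 7). Of 1889 tiles of 1.3 Mb, 4.02% held at least the 17 of the Msx2-Ror2 window, and the median was 4 (quartiles 2 and 8). By each library's own peaks, 3.97% of tiles reached the count of the Msx2-Ror2 window in replicate 1 and 3.07% in replicate 2. For the Msx1 window these shares were 32.6% and 23.3%. The tiles include stretches to which reads cannot be mapped.

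**Figure D2:**
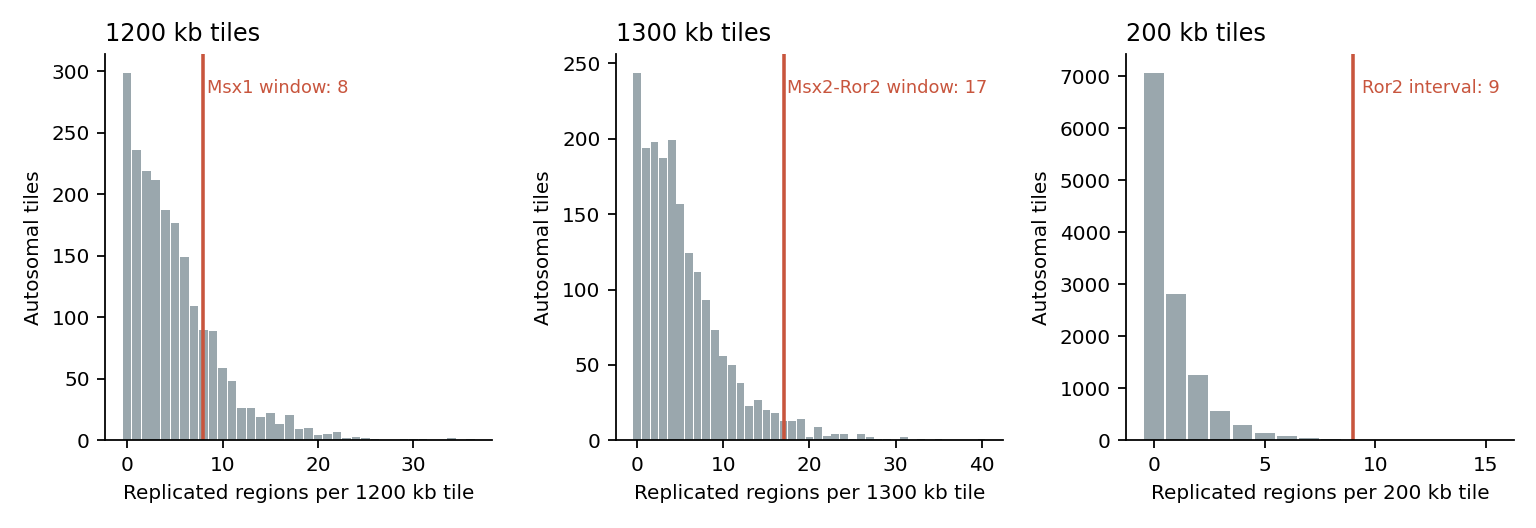
Number of autosomal tiles (vertical axis) by the replicated regions they hold (horizontal axis), for tiles of 1200, 1300 and 200 kb, with red lines at the counts of the Msx1 window (8), the Msx2-Ror2 window (17) and the Ror2 interval (9). The Msx1 line falls within the body of its histogram, and the other lines fall in the right tails.

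Set against each other, the windows differed in the same direction in both libraries, by an amount that these counts measure poorly. The Msx2-Ror2 window, with 9 of its 17 regions in the interval given for Ror2, had 1.96 times the density of replicated regions of the Msx1 window (exact interval 0.802 to 5.25). The ratio was 2.26 (0.999 to 5.57) for replicate 1 peaks and 1.90 (1.05 to 3.54) for replicate 2 peaks. The interval included 1 for the regions and for replicate 1, and excluded it for replicate 2. Since neighbouring peaks are not independent, these intervals are too narrow: the variance of region counts between tiles was 4.61 times their mean for tiles of 1.2 Mb and 4.84 times for tiles of 1.3 Mb.

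The autosomal background of sharing between the libraries lay inside the interval of each window's share. With so few peaks these intervals are wide, so they do not show how close the shares are to it. In the Msx1 window 8 of 9 replicate 1 peaks were shared (88.9%, 95% Wilson interval 56.5 to 98.0%), and in the Msx2-Ror2 window 17 of 22 (77.3%, 56.6 to 89.9%). The background share on the other autosomes was 69.8%, inside both intervals. Of the replicate 2 peaks, 8 of 18 in the Msx1 window (44.4%, 24.6 to 66.3%) and 17 of 37 in the Msx2-Ror2 window (45.9%, 31.0 to 61.6%) were shared, beside a background of 42.6%.

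The layout of the peaks also differed between the windows. In the Msx1 window all 8 replicated regions lay within 281 kb, between 38216544 and 38498019, on the side of the approximate Msx1 position with the higher coordinates. For the nearest of them the side is uncertain, because its distance is smaller than the rounding of that position. Of 12 bins of 100 kb, 3 held a replicated region, and 6 held no peak of either library. No peak of either library lay in the 567 kb between 37648847 and 38215715. In GRCm38 the higher coordinates are the upstream side of Msx1, toward Stx18, and the nearly empty side, with 1 unshared replicate 2 peak, is that of Cytl1, Stk32b, Evc2 and Evc.

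In the Msx2-Ror2 window the 17 regions spread over 1018 kb, and 8 of 13 bins held at least 1. The interval given for Ror2 held 9 of them, 1 lay before it, 2 lay between it and the position of Msx2, and 5 lay beyond Msx2. The longest stretch without a peak of either library was 153 kb. The median distance between neighbouring midpoints was 20.4 kb in this window and 34.3 kb in the Msx1 window, against 88.9 kb on the other autosomes. The autosomal value includes all gaps, whereas the window values leave out the stretches from the outermost regions to the window bounds. These were 171 and 111 kb in this window and 617 and 302 kb in the Msx1 window, so the window medians are too short for a like comparison.

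**Figure D3:**
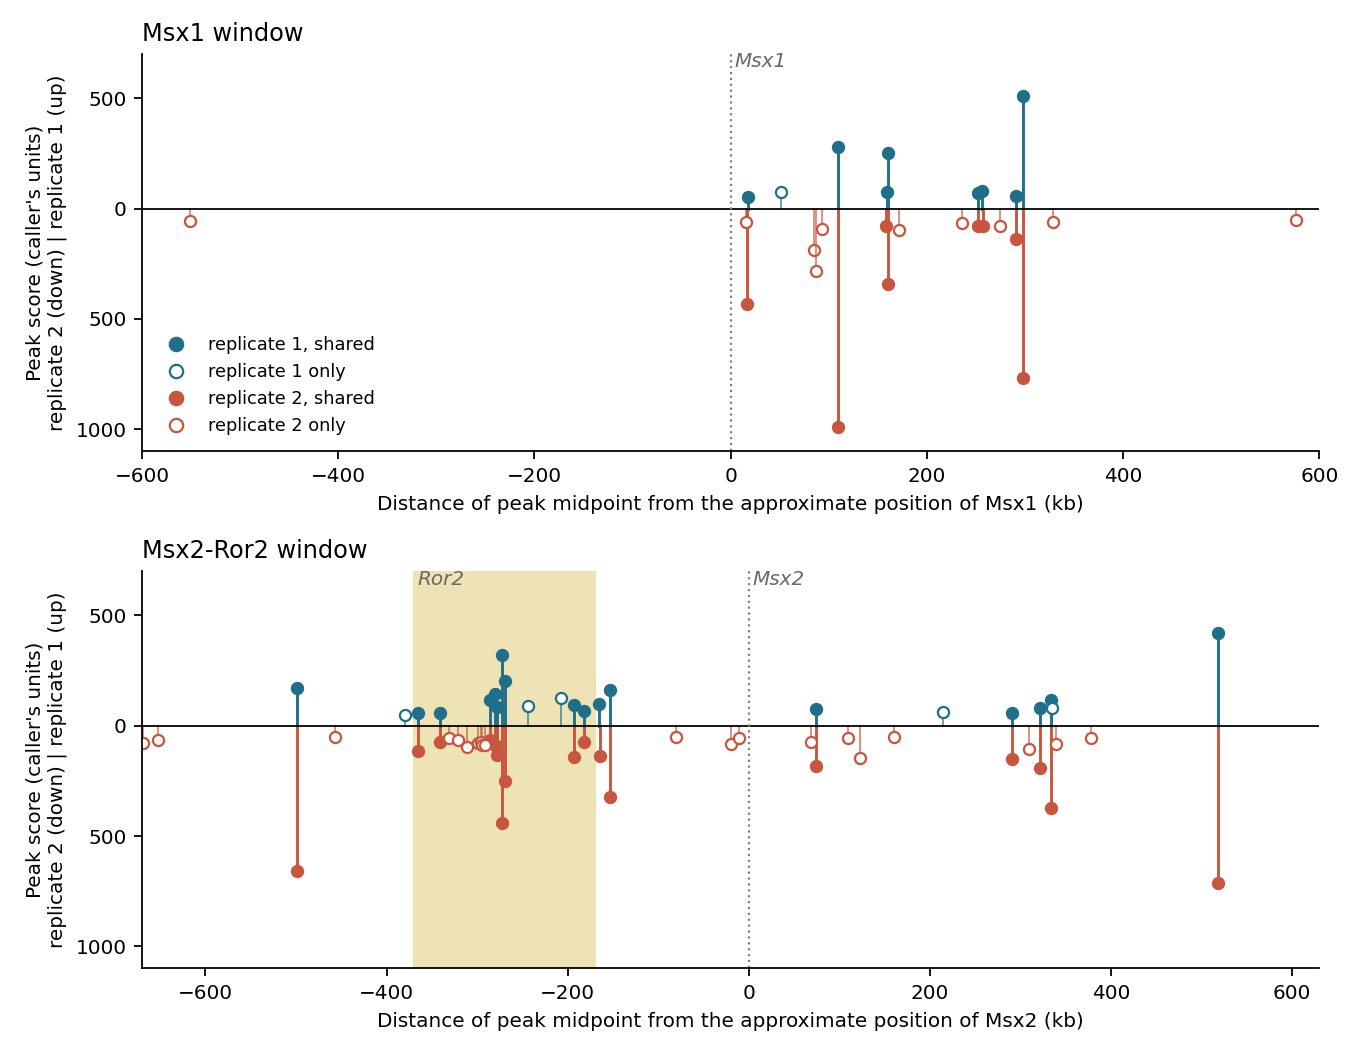
Score of each Pitx1 peak (vertical axis, replicate 1 upward and replicate 2 downward) by distance from the approximate position of Msx1 (upper panel) or Msx2 (lower panel) in kb. Filled points are shared peaks and open points were called in 1 library, and the shaded band is the approximate interval of Ror2. All 8 pairs of filled points in the upper panel lie to the right of the Msx1 line, and 9 of the 17 pairs in the lower panel lie in the Ror2 band.

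The Ror2 interval held more peaks in both libraries than equal lengths around Msx1 or Msx2, and its lower end held the 100 kb bin with the most replicated regions of either window, 6. Its 200 kb held 11 replicate 1 peaks, 16 replicate 2 peaks and 9 replicated regions, or 45 regions per Mb, 10.96 times the autosomal rate (exact interval 5.01 to 20.8). Of 12329 autosomal tiles of 200 kb, 0.219% held at least 9 regions, and 57.4% held 0. The same length around Msx1 held 1 replicated region, with 2 replicate 1 peaks and 5 replicate 2 peaks, and around Msx2 likewise 1 region, with 1 and 5 peaks. The count for Msx1 depends on its rounded position, since the region starting at 38308967 lay just outside, about 109 kb away. The adjoining 100 kb bins of the Msx1 window, 38.3 to 38.4 Mb and 38.4 to 38.5 Mb, held 3 and 4 replicated regions. Because the Ror2 interval was named in view of these peaks, its density too is a description.

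Within the Ror2 interval, 5 replicated regions formed a run with neighbouring midpoints under 10 kb apart, over 17.4 kb from 53283974 to 53301393. Runs of at least 5 were rare, at 7 in all 10274 regions of the series. The strongest of the run, from 53296682 to 53297850, scored 319 in replicate 1 and 439 in replicate 2, which placed it in the best 4.83% and 4.62% of the lists. Its neighbour from 53300260 to 53301393 scored 203 and 253, within the best 11.47% and 11.63%. These regions held nearly the same place in both libraries.

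As a percentage of the list, the places of the other members of the run differed more. The region from 53283974 to 53284777 scored 116 in replicate 1 but 65.2 in replicate 2, at 29.2% and 72.5% of the lists counted from the strongest peak. The region from 53288893 to 53290024 scored 144 and 86.3, at 20.6% and 50.7%. By percentage, the order was the opposite in the region from 53291667 to 53292311, with scores of 82.9 and 132, at 48.5% and 29.9%. Its rank numbers were close, at 7154 and 7471, and 45.1% of other autosomal regions had a percentage gap as wide. Beside the run, from 53238410 to 53279060, replicate 2 had 7 consecutive peaks with no replicate 1 peak among them, scoring 57.2 to 97.5. In replicate 2 the run thus had further peaks on its lower side that replicate 1 did not call. Not all of these were under 10 kb from the next by midpoint, so only those nearest the run would extend it.

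Elsewhere in the Ror2 interval the replicated regions were weak to middling. Toward its lower end lay regions from 53204846 to 53205392 (scores 58.7 and 114) and from 53228784 to 53229904 (55.8 and 71.6). Toward its upper end lay regions from 53376883 to 53377570 (93.4 and 140) and from 53388071 to 53388990 (65.5 and 72.4). A further pair stood just past the rounded end of the interval, toward Sptlc1 in the GRCm38 order. The first, from 53404303 to 53405710, scored 97.7 and 136, and the second, from 53416134 to 53417005, scored 160 and 323.

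The area around Msx2 itself held few replicated regions beside the Ror2 interval, but not beside the autosomes. Its 200 kb had 1.22 times the autosomal rate (exact interval 0.0308 to 6.79). The nearest replicated region, from 53643557 to 53644419, was about 74.0 kb past the rounded Msx2 position and scored 76.6 in replicate 1 and 185 in replicate 2. Between it and the region ending at 53417005, a gap of 227 kb between midpoints held no replicated region. Replicate 2 alone had 4 peaks there, of which those nearest to Msx2 ran from 53550764 to 53551087 (score 84.3) and from 53558899 to 53559223 (score 55.1). Replicate 1 had no peak in this gap, so on the Ror2 side the peaks nearest to Msx2 were called in replicate 2 only.

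By summed rank, the first region and the third of the Msx2-Ror2 window stood toward its ends, outside the Ror2 interval and away from Msx2. The second was the strongest of the run described above. The first, from 54088138 to 54089113, scored 420 in replicate 1 and 714 in replicate 2, in the best 2.41% and 1.598% of the lists. It lay about 519 kb past Msx2 and 185 kb from any other replicated region. At the opposite end, before the Ror2 interval, the third, from 53070930 to 53072209, scored 170 and 657, in the best 15.5% and 1.93%. It stood 134 kb from any other replicated region.

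Beyond Msx2, 3 further regions formed a loose group about 290 to 334 kb from its position. They ran from 53860175 to 53860721 (scores 58.7 and 149), from 53891318 to 53891993 (78.4 and 192) and from 53903178 to 53903960 (118 and 373). All 3 were placed higher in the replicate 2 list than in the replicate 1 list, by percentage and by rank number. By percentage so were 14 of the 17 regions of this window and 65.5% of other autosomal regions. By rank number 7 of the 17 and 39.8% were.

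In the Msx1 window, peak strength was split between a few strong regions and weak ones. The first by summed rank, from 38497114 to 38498019, scored 510 in replicate 1 and 768 in replicate 2, in the best 1.32% of both lists. The second, from 38308967 to 38309932, scored 278 and 991, in the best 6.29% and 0.679%, and 991 was the highest replicate 2 score of any member. The third, from 38359619 to 38360431, scored 250 and 342, in the best 7.85% and 7.13%. These regions lay about 298, 109 and 160 kb from the rounded position of Msx1.

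The weaker regions mostly stood next to the strong ones or to each other. On the other autosomes 22.9% of regions had another within 10 kb. The region from 38358574 to 38359548 (scores 73.7 and 79.2) was 0.964 kb, between midpoints, from the third strongest, and that from 38490458 to 38491223 (56.5 and 137) was 6.73 kb from the strongest. A further pair, from 38452020 to 38452843 (71.0 and 77.3) and from 38455980 to 38457130 (81.2 and 78.4), lay 4.12 kb apart. No run of 3 or more regions under 10 kb apart was present in this window, and such runs held 5.96% of the regions on the other autosomes.

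The region nearest to Msx1 was the one on which the libraries differed most. It ran from 38216544 to 38217583, about 17.1 kb from the rounded gene position, which is less than the rounding. Its score was 54.3 in replicate 1, among the weakest of that list at 89.6% from the strongest peak, and 435 in replicate 2, in the best 4.73%. The gap of 84.9 percentage points was the widest of the 25 members, and 0.257% of the other autosomal regions had a gap as wide. Replicate 2 had a further peak beside it, from 38215715 to 38216189 (score 62.7), that replicate 1 lacked. By rank sum this region was number 4 of 8 in its window, a place that rests on replicate 2.

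Over all 25 members, places in the lists were alike for some regions and far apart for others. The median gap was 3.90 percentage points over the 8 regions of the Msx1 window and 18.6 over the 17 of the Msx2-Ror2 window, against 15.8 on the other autosomes. Spearman's rho between the scores of the libraries was 0.452 over 8 regions, 0.665 over 17 and 0.559 over 10120 autosomal regions. These values describe regions that share the same 2 libraries and are not independent. As a percentage of the list, the place in replicate 2 was the higher in 20 of 25 members, against 65.5% of autosomal regions. The replicate 2 list is the longer, with 25027 peaks against 14753, and by rank number its place was the higher in 10 of 25 members, against 39.8%. As percentages, median places of the members were 40.4% in replicate 1 and 25.5% in replicate 2. The corresponding autosomal medians of 37.9% and 25.3% were close to these.

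**Figure D4:**
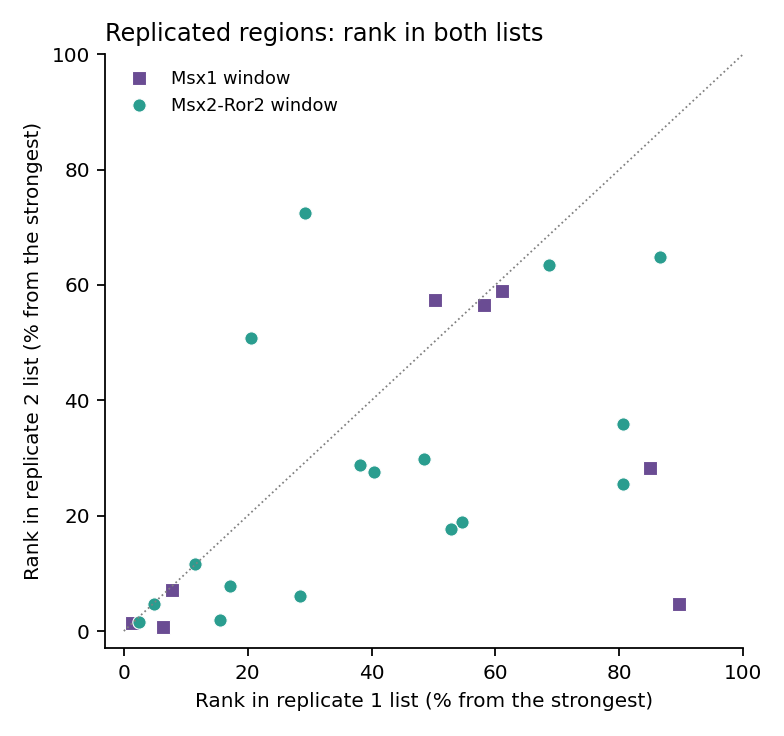
Place of each of the 25 replicated regions in the replicate 1 list (horizontal axis) and the replicate 2 list (vertical axis), in percent counted from the strongest peak, with squares for the Msx1 window, circles for the Msx2-Ror2 window and a dotted line at equal places. Points gather on the line at the lower left, and the square at the lower right is the region nearest to Msx1, at 89.6% and 4.73%.

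Shared peaks of the Msx2-Ror2 window had a median score of 97.7 in replicate 1 and 149 in replicate 2, beside autosomal medians of 97.7 and 145. Those of the Msx1 window had medians of 77.5 and 240. The replicate 2 median rests on few peaks, since the middle pair of its 8 scores, 137 and 342, lay on either side of the autosomal median. Of the 8 shared peaks of the Msx1 window, 3 in replicate 1 and 4 in replicate 2 were in the best 10% of their list. In the Msx2-Ror2 window 2 and 5 of 17 were. On the autosomes outside both windows 14.3% and 22.3% of the shared peaks were.

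Peak shape followed the general difference between the lists. Replicate 1 peaks were the wider in 22 of 25 members, by a median of 1.44 times, against 1.46 times and 92.4% of autosomal regions. The exceptions were the region nearest to Msx1 (603 bp in replicate 1 and 1022 bp in replicate 2), that at 38308967 (892 and 966 bp) and that at 53070930 (1008 and 1202 bp). Their replicate 2 scores were 435, 991 and 657. Midpoints of the paired peaks differed by a median of 60 bp and at most by 358 bp.

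Peaks called in 1 library only were mostly weak, with exceptions near Msx1. In replicate 1 the Msx1 window had 1 such peak, from 38251150 to 38252149 (score 76.8), 32.7 kb from any replicate 2 peak. The Msx2-Ror2 window had 5, scoring 50.2 to 127. The highest ran from 53361625 to 53362780 in the Ror2 interval, in the best 25.3% of its list. In replicate 2, 20 unshared peaks of the Msx2-Ror2 window scored 50.4 to 147, and the highest ran from 53692120 to 53692939. The 10 of the Msx1 window scored 51.9 to 284.

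The highest of those 10 belonged to a group of 3 replicate 2 peaks within 8.76 kb, from 38284836 to 38293591. Their scores were 188, 284 and 93.9, and replicate 1 had no peak within 15.4 kb of the last or 23.6 kb of the first. The peak from 38286660 to 38287324, scoring 284, was in the best 9.76% of the replicate 2 list. On the other autosomes 0.862% of the unshared replicate 2 peaks were in the best 10%.

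The authors also deposited a list of 1 bp positions without scores. It held 8 positions in the Msx1 window and 17 in the Msx2-Ror2 window, so that each of the 25 replicated regions contained 1. Elsewhere on the autosomes 99.7% of shared replicate 2 peaks contained one. The position in the region nearest to Msx1 was 38217085, and that in the strongest member of the Ror2 run was 53297156.

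In replicate 1 every peak next to a window bound had its midpoint at least 111 kb from that bound. In replicate 2 some bounds had nearer peaks. Those beside the end of the Msx1 window were 23.5 and 61.2 kb away, and those beside the start of the Msx2-Ror2 window 1.27 and 38.6 kb. On chromosome 5 the last replicate 1 peak before the window, at 36727558, scored 120 and the first inside, at 38216981, scored 54.3. The last inside, at 38497114, scored 510 and the first beyond, at 38953077, scored 59.5. In replicate 2 the corresponding peaks were at 37087219 (55), 37648576 (57.0), 38776363 (51.9) and 38861056 (68.4). On chromosome 13 they were at 52770619 (105), 53070930 (170), 54088138 (420) and 54356516 (57) in replicate 1. In replicate 2 they were at 52861218 (101), 52901026 (77.8), 54088296 (714) and 54428390 (152). The nearest bound to any peak was the start of the Msx2-Ror2 window, 1.27 kb from an unshared replicate 2 peak.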

How the data were processed

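The submitters' processing notes name MACS 1.4.2, Bowtie 0.12.8, bedtools 2.16.2 and CASAVA (1.7 and 1.8.2), with the mm9 build. Neither the role of each tool nor the caller's settings and use of the input were found in the labels. The deposited peak lists were called per library, as their peak names are numbered separately, and hold a score for each peak that no header defines, taken here as the caller's score. Scores were compared within their own list, as values, medians and ranks, and Spearman's correlation compared their order between lists. Read numbers were not used here, so depth is unknown, and the input libraries entered no comparison. Start coordinates were increased by 1.

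The windows, genes and lists were chosen with earlier results of these data known. Shared means an overlap of 1 bp or more. Densities used autosomal length up to the last peak, outside both windows. Intervals are 95% (exact Poisson, conditional exact or Wilson) and cover counting error only. Tiles did not overlap. Peaks were named by a fixed rule: in each window the strongest by summed rank, those near the genes, the longest run, the strongest unshared peaks and those at the bounds; the remaining regions and the exceptional unshared groups were added after their values were seen. No test was run, since peaks of 1 library are not replicates. The code was tested on simulated lists. Python 3.11.15, numpy 2.4.6, scipy 1.17.1 and matplotlib 3.10.9 were used.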

Additional observations from a re-analysis of the deposited data

How the results depend on the processing

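No paired analysis was possible because only the Pitx1 ChIP libraries entered a comparison and peaks of the inputs were not analysed here. The 7 main values were recomputed under up to 10 alternatives, which mostly reuse the same peaks. Of 54 values, 53 stayed inside the interval of the reported value, which says little because these intervals are wide. The exception was the share of replicate 1 peaks in the Msx1 window, which was 100% (3 of 3) when the lists were limited to their better 50%, where fewer peaks are left. The density ratio of the Msx1 window to the autosomes ranged from 1.14 with the lists limited in that way to 2.44 with the window narrowed by 200 kb on each side, where it excludes more of the empty flank and its interval excluded 1 (1.05 to 4.80). The ratio of the Msx2-Ror2 window ranged from 2.58 to 4.06, and that between the windows from 1.62 to 2.77. Leaving out 1 replicate meant using all peaks of the other in place of replicated regions, which repeats the single-library ratios given above. They ranged from 1.27 to 1.50 (Msx1 window), from 2.84 to 2.87 (Msx2-Ror2 window) and from 1.90 to 2.26 (between the windows). Reciprocal overlap of 50% left out the Msx1 window regions at 38452020 and 38455980 and the Ror2 interval region at 53228784, and midpoints within 250 bp left out those at 38455980 and 53404303. The depth of the libraries is unknown, which limits what can be said of a peak missing from 1 list.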
